A study of Mus musculus with 24 samples.

Results

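Bnip3l, Bnip3, Fundc1, Bcl2l13, Pink1 and Trak2 encode proteins of the mitochondrial surface that mark mitochondria for removal or tie them to the transport machinery. They were chosen by symbol, with earlier results of these data known, and 11 of the 25697 probes on the array carry 1 of these 6 names. Bnip3l, Bnip3 and Bcl2l13 have 1 probe each, Pink1 has 2, and Fundc1 and Trak2 have 3 each. Of the 11, 7 were above background (detection p below 0.01) on at least 3 of the 24 arrays and entered the tests, together with 6305 other probes.

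A reticulocyte is a young red cell that has lost its nucleus and still holds mitochondria, ribosomes and RNA, all of which it discards as it becomes an erythrocyte. Mitochondria leave by mitophagy, in which an autophagosome encloses the organelle. Receptors of the outer membrane (Bnip3l, also called NIX, its relative Bnip3, Fundc1 and Bcl2l13) bind the LC3 family of autophagosome proteins directly, and Bnip3l is the receptor known to be required in mouse reticulocytes. Pink1 is a kinase that accumulates on damaged mitochondria and recruits the ubiquitin ligase parkin. Trak2 is an adaptor that links mitochondria, through the Miro proteins Rhot1 and Rhot2, to kinesin motors.

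Blood rich in reticulocytes was taken from adult male C57BL/6J mice and kept in culture, and total RNA was measured on Illumina mouse bead arrays. The groups were 5 mutant and 3 wild-type samples, called biological replicates in the design text, at each of 0, 12 and 24 h. The labels do not name the mutated gene, so its level could not be used to check the groups, and pooling of animals is not stated. The question was how these transcripts differed between mutant and wild-type cells and how they changed in culture. Because RNA was taken from whole cell preparations, fewer cells of a type and less RNA per cell cannot be told apart.

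The arrays differed in background and in how much they detected. The median raw intensity was 139 to 278 on mutant and 132 to 298 on wild-type arrays at 0 h, and 38.7 to 44.7 on all later arrays, so that time after 0 h and array background cannot be told apart. Mutant arrays detected more probes at every time (3.60 to 17.0%, 13.0 to 28.8% and 10.2 to 18.3%) than most or all wild-type arrays (2.17 to 4.62%, 4.92 to 6.62% and 6.93 to 7.72%). Of 9 red cell markers, Hba-a1, Alas2 and Slc4a1 were detected on all 24 arrays and Tfrc on 22, while Epor and Epb42 were not detected on any. Markers of other blood cells were higher in mutant samples at 0 and 12 h, with less or no separation at 24 h. At 0 h the summed level of 13 B cell markers was 2360 to 7930 in mutant and 495 to 1260 in wild-type samples, that of 12 neutrophil markers 3150 to 12800 and 779 to 2140, that of 7 monocyte markers 765 to 2110 and 240 to 327, and that of 9 platelet markers 1510 to 2780 and 290 to 803, none with overlap. At 12 h the B cell sum was 2790 to 8140 in mutant and 1280 to 1800 in wild type, the neutrophil sum 2730 to 10900 and 1240 to 2120, and the monocyte sum 454 to 1150 and 236 to 334, again without overlap. The platelet sum at 12 h (1800 to 3400 and 445 to 1910) overlapped. At 24 h the B cell sum was 1290 to 2990 in mutant and 883 to 1480 in wild type, the neutrophil sum 1820 to 8630 and 1170 to 2010, the monocyte sum 358 to 601 and 268 to 381, and the platelet sum 2500 to 3580 and 566 to 3110, all with overlap. The sum of 11 T cell markers overlapped at all 3 times. Among these markers Pax5 (B cells), Mmp8 (neutrophils), Fcgr1 (monocytes) and Cd4, Cd8a, Cd5, Trat1 and Gzma (T and cytotoxic cells) were not detected on any array. The part of these cells in the differences between genotypes below was not tested.

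The promoters of Pink1 and Trak2, whose probes most of the results below describe, are shown with that of Bnip3, which was not detected on any array. Each window holds 250 bases before and 50 after a transcript start of the RefSeq table, 5′ to 3′ on the gene's strand (GRCm38.p6). For Pink1 and Bnip3 that start is the outer end of the gene as given below, and for Trak2 it lies 863 bases inside the gene, so the Trak2 window does not cover the outermost start. The windows are chr4:138326247-138326546, minus strand, for Pink1, chr1:58973433-58973732, minus strand, for Trak2 and chr7:138909457-138909756, minus strand, for Bnip3. Capitals mark matches, on either strand, to motifs bound by factors known in red cells or in hypoxia.
Pink1: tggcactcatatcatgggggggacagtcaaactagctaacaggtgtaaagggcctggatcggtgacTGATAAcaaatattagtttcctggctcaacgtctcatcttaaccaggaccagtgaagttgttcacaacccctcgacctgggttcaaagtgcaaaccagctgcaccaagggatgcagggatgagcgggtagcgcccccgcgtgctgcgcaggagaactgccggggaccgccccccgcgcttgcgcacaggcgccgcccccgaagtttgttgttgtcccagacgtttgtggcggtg
Trak2: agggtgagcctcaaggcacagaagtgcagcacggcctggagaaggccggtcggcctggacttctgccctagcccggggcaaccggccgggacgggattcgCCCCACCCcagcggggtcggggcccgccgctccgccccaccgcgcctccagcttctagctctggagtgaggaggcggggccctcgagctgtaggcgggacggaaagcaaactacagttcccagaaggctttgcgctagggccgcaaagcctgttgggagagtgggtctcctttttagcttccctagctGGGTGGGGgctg
Bnip3: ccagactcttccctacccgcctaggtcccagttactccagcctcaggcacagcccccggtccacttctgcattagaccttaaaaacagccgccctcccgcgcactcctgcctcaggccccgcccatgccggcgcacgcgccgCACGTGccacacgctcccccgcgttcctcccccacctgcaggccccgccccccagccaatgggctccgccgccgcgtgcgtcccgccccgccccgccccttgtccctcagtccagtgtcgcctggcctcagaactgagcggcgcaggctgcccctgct
The Pink1 window held TGATAA, which GATA factors bind, 184 bases before the start. The Trak2 window held the KLF motif CCCCACCC, 150 bases before that inner start, and its reverse complement 38 bases after it. The Bnip3 window held ACGTG, the core of the hypoxia response element, 107 bases before the start, where it overlaps its own reverse complement in CACGTG. Of 32851 mouse promoter windows of 300 bases, 9.05% held TGATAA, 9.99% CCCCACCC and 19.6% ACGTG. The search also covered AGATAA for GATA factors (held by 11.2% of windows), likewise TGATAG (7.29%) and the variant AGATAG (8.95%). It covered CCACACCC for KLF factors (3.56%) and TGTTTAC for FOX factors (3.65%). The Fundc1 and Bcl2l13 windows held none of these letters. Bnip3l was not matched to a window.

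Bnip3l (probe ILMN_2716567, gene at chr14:66985238-67008877) gave a bright signal and was detected on all 24 arrays. Its intensity ranked 9 to 17 among the 25697 probes of each array, a rank of the probe that sets its quantile-normalized value and not of the transcript's level. Its raw intensities at 0 h were 15363, 12209, 16578, 21554 and 19576 in mutant and 12285, 10268 and 12245 in wild-type samples. At 12 h they were 17307, 15721, 20604, 20954 and 20330 in mutant and 26504, 23110 and 22390 in wild type. At 24 h they were 18906, 17230, 19426, 23447 and 20241 in mutant and 16757, 15982 and 16148 in wild type. The raw values thus overlapped between genotypes at 0 h, lay lower in every mutant than in every wild-type sample at 12 h, and lay higher in every mutant sample at 24 h.

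These raw separations were small. The mean log2 difference, mutant minus wild type, was 0.53 at 0 h, -0.34 at 12 h and 0.28 at 24 h (exact two-sided permutation p = 0.107, 0.0357 and 0.0357, adjusted 0.187, 0.075 and 0.075 over 21 comparisons). The smallest p that 5 against 3 samples allow is 0.0357, and none of the 21 comparisons passed after adjustment. After background correction and quantile normalization, which replaces an intensity by the mean intensity of its rank, Bnip3l averaged 14.06 ± 0.19 in mutant and 14.31 ± 0.05 in wild type at 0 h (log2, SD, n = 5 and 3), 14.14 ± 0.16 and 14.16 ± 0.24 at 12 h, and 14.20 ± 0.05 and 13.96 ± 0.00 at 24 h. The difference was -0.25 ± 0.10 at 0 h (SE, limma adjusted p = 0.0414), -0.02 ± 0.10 at 12 h (0.88) and 0.24 ± 0.10 at 24 h (0.0835). The 0 h difference turned to 0.30 when arrays were centred on the median of all probes and to 0.08 in the authors' processed values, and its call was lost when any 1 of 6 of the 8 samples at 0 h was left out (-0.33 to -0.19 over all arrays) and with array weights or no filter.

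**Figure D1:**
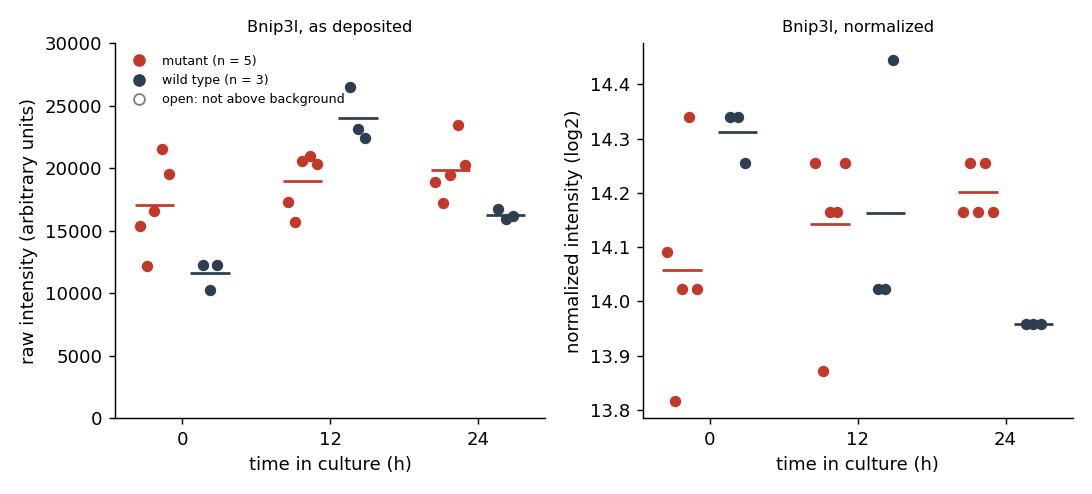
Bnip3l by array, as raw intensity (left, arbitrary units) and as normalized log2 intensity (right), against time in culture. Points are arrays (5 mutant in red, 3 wild type in dark blue), and bars are group means. Mutant raw values lie below wild type at 12 h and above it at 24 h, while the normalized values fall on few levels, each the mean of a rank near the top of the array.

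Over time, no change of Bnip3l in mutant cells passed the test, with 12 h minus 0 h at 0.08 ± 0.08 (adjusted p = 0.461), 24 h minus 12 h at 0.06 ± 0.08 (0.638) and 24 h minus 0 h at 0.14 ± 0.08 (0.175). The interval of the last difference was -0.03 to 0.32. Ranks of 9 to 17 held the normalized values between 13.82 and 14.44 on all 24 arrays, so this interval cannot exclude a larger change of the transcript. In wild type the level at 24 h was below that at 0 h by -0.35 ± 0.11 (adjusted p = 0.00948), and the same difference was 1.05 after median centring over all probes, 0.95 over the kept probes and 2.82 in the authors' values. The sign of the change in Bnip3l from 0 h therefore depends on the scaling. The nearest patterns over the 24 arrays were those of Kctd14, Get4 and Atf2, with r of 0.599, 0.581 and 0.554, the lowest of the 5 genes compared.

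Bnip3 (ILMN_2755900, chr7:138890836-138909506), the hypoxia-induced relative of Bnip3l, was not detected on any of the 24 arrays. Its detection p was 0.129 to 0.979. The raw signal was 114 to 254 at 0 h and 37.6 to 43.9 later, close to the array medians. Any Bnip3 RNA in these cells was thus below what 1 probe could show, and no fold change is given.

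Fundc1 (chrX:17519967-17572329), an outer membrane receptor whose binding to LC3 is set by phosphorylation, was near background. Its probe ILMN_2958016 was detected on 3 of the 5 mutant arrays at 12 h and on no other array, and ILMN_1229913 on 2 of those 5 and on no other. The probe ILMN_2762755 was not detected on any array. For ILMN_2958016 the raw values at 12 h were 48 to 66 (median 54) in mutant and 44 to 48 (median 48) in wild-type samples, and mutant replicate 2 lay within the wild-type range. The probe passed the filter only through those 3 mutant arrays at 12 h, so its 12 h level had to be high, and the fitted values that follow are a description and not support for a difference. The 12 h difference was 0.28 ± 0.08 log2 units (adjusted p = 0.00595) and was 0.10 in the authors' values (0.26) and -0.50 (0.09) when arrays were centred on the median of the kept probes. In mutant cells the signal at 24 h was lower than at 12 h by -0.19 ± 0.07 (0.033), a call lost without any 1 of 4 samples and 0.21 under that centring. No wild-type sample was above background, and the bound computed from the lowest detected signal gave no fold.

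Bcl2l13 (ILMN_1241307, chr6:120836206-120892842), a receptor of the Bcl2 family that binds LC3, was detected on 3 of 5 mutant arrays at 12 h and 4 of 5 at 24 h, and on no wild-type array. The lowest detected normalized signal at 12 h was 4.95 to 5.47 on mutant and 6.18 to 6.55 on wild-type arrays, so these detection counts are not comparable between genotypes. At 12 h its raw intensity was 46 to 59 (median 51) in mutant and 51 to 59 (median 57) in wild-type samples, with overlap. The fitted 12 h difference, -0.14 ± 0.13, did not pass the test (adjusted p = 0.378). Its raw intensity at 24 h was 49 to 63 (median 54) in mutant and 43 to 48 (median 45) in wild-type samples, without overlap. Normalized values at 24 h averaged 5.47 ± 0.15 and 5.33 ± 0.22, and that difference, 0.14 ± 0.13, did not pass the test (adjusted p = 0.461). The probe passed the filter only through mutant arrays at 12 and 24 h, so the fitted changes from 0 h, where no array detected it, have no bound and are a description. From 0 to 24 h the fitted change was 0.72 ± 0.12 in mutant (adjusted p = 2.24e-05) and 0.71 ± 0.15 in wild type (0.000365), not above background at either time, and these changes differed by 0.01 ± 0.19 (0.978). Between 12 and 24 h in mutant cells, where 3 of 5 and 4 of 5 arrays detected the probe, the fitted change was 0.37 ± 0.12 (0.0173). In wild type it was 0.09 ± 0.15 (0.872), and these differed by 0.28 ± 0.19 (0.56). The same mutant arrays carried the probe past the filter, so this change too is a description. Its mean raw intensity in mutant was 53 at 12 h and 54.6 at 24 h. The mutant call was lost under median centring over all probes (0.11) and without any 1 of 3 samples (0.31 to 0.41).

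**Figure D2:**
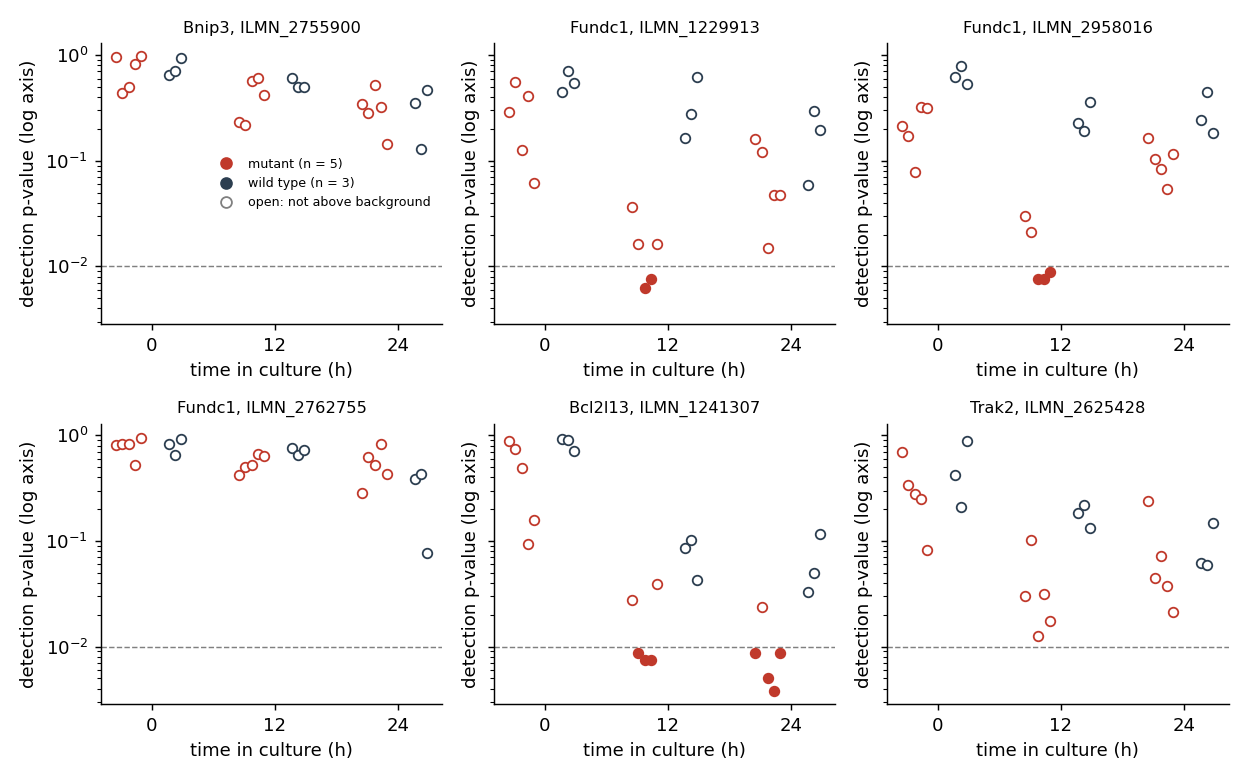
Detection p-value (log axis) of the 6 probes detected on fewer than 8 of 24 arrays, by array and time in culture, mutant in red and wild type in dark blue. Filled points lie below 0.01 (dashed line). All filled points are mutant arrays at 12 or 24 h, for 2 Fundc1 probes and the Bcl2l13 probe.

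Pink1 (chr4:138313409-138326296), the kinase, had a low raw signal at 12 h and a high one at 24 h in mutant samples, whereas in wild type its mean raw signal was higher at 12 h than at 24 h. For the brighter probe, ILMN_1255556, the raw intensities at 12 h were 281, 235, 383, 484 and 416 in mutant and 1116, 983 and 486 in wild-type samples. All mutant values were below all wild-type values, with wild-type replicate 3 just above the highest mutant sample. At 24 h they were 1223, 1247, 1595, 1547 and 1811 in mutant and 698, 743 and 389 in wild-type samples. Here every mutant sample was above every wild-type sample. At 0 h the values were 367, 300, 352, 427 and 451 in mutant and 297, 502 and 398 in wild type, which overlapped.

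The dimmer probe, ILMN_2616573, gave the same order. At 12 h its raw intensities were 81, 63, 78, 99 and 79 in mutant and 277, 269 and 108 in wild-type samples. At 24 h they were 206, 209, 249, 293 and 292 in mutant and 116, 144 and 113 in wild type. The genotypes did not overlap at either time, and wild-type replicate 3 was again the lowest wild-type sample at both. At 0 h this probe was not detected in either genotype. Over the 24 arrays the normalized values of the 2 probes correlated at r = 0.863, and at 0.922 over the 16 later arrays. Both probes share each sample's RNA, so they are not independent.

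**Figure D3:**
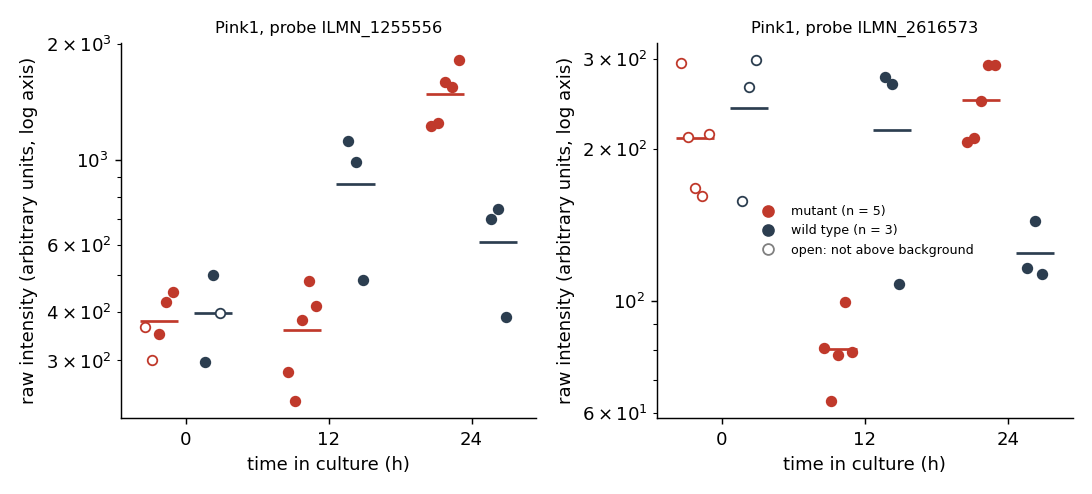
Raw intensity of the 2 Pink1 probes (log axis, arbitrary units) against time in culture, with 5 mutant samples in red, 3 wild-type samples in dark blue, and bars at group means. Open points are arrays where the probe was not above background. Mutant samples lie below wild type at 12 h and above it at 24 h for both probes.

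On the raw log2 scale the difference, mutant minus wild type, was -1.22 and -1.33 at 12 h and 1.32 and 1 at 24 h for the 2 probes (exact two-sided permutation p = 0.0357 each, the smallest possible, adjusted 0.075 over 21 comparisons). After normalization the 12 h difference of ILMN_2616573 was -1.85 ± 0.26 (SE, limma adjusted p = 7.81e-06), a 3.61-fold lower level in mutant, with means of 5.73 ± 0.42 in mutant and 7.58 ± 0.43 in wild type (SD, n = 5 and 3). This call held without any 1 array (-2.06 to -1.63). For ILMN_1255556 it was -1.22 ± 0.49 (0.0436). That call was lost without any wild-type sample at 12 h, without mutant replicates 2, 3 or 4 at 12 h or mutant replicate 2 at 24 h (adjusted p up to 0.13), and under median centring over all probes (-0.69, 0.22) or no filter (0.13).

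At 24 h the normalized differences were 0.75 ± 0.49 for ILMN_1255556 (adjusted p = 0.287) and 0.28 ± 0.26 for ILMN_2616573 (0.471), so neither passed the test. The means were 10.26 ± 0.23 in mutant and 9.51 ± 0.46 in wild type for the first probe, and 7.74 ± 0.15 and 7.46 ± 0.28 for the second. The intervals, -0.29 to 1.78 and -0.28 to 0.83, leave room for a difference of the raw size only in the first probe. Fitted on the 24 h arrays alone, ILMN_1255556 was higher in mutant by 0.74 (0.009).

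The change between 12 and 24 h was tested directly. In mutant cells Pink1 rose 4.21-fold by ILMN_1255556 (2.07 ± 0.43 log2 units, adjusted p = 0.000796) and 4.04-fold by ILMN_2616573 (2.01 ± 0.23, 5.22e-07), and both calls held without any 1 array and under every other setting tried. In wild type the change was 0.11 ± 0.55 (0.969) and -0.12 ± 0.29 (0.926). The difference between these changes was 2.13 ± 0.37 for ILMN_2616573 (0.00188, and 1.90 to 2.34 without any 1 array, with adjusted p up to 0.016), and 1.97 ± 0.70 for ILMN_1255556 (0.17), which did not pass. These tests did not pair same-numbered arrays. With the replicate number as a block, which does, 1 member probe was again called for the difference between the changes.

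Set against 0 h, mutant Pink1 was higher at 12 h by 1.61 ± 0.43 (ILMN_1255556, adjusted p = 0.0076). At 24 h it was higher by 3.68 ± 0.43 (2.64e-07), a 12.8-fold difference after normalization. At 0 h this probe was above background on 3 of 5 mutant arrays. Its mean raw intensity in mutant was 379 at 0 h, 360 at 12 h and 1480 at 24 h, so the raw mean did not rise from 0 to 12 h. By ILMN_2616573, not detected at 0 h, the mutant level at 24 h was at least 3.5-fold higher. The wild-type level was at least 1.36-fold higher at 12 h and at least 1.25-fold higher at 24 h. The limma adjusted p-values, 1.2e-09, 3.46e-07 and 4.49e-07, belong to the fitted differences from undetected values and do not test these bounds. At 0 h the brighter probe was lower in mutant by -1.61 ± 0.49 (0.0125), with normalized values of 5.70 to 7.57 in mutant and 6.22 to 9.23 in wild type. By the same probe, the wild-type level at 24 h was above that at 0 h by 1.32 ± 0.55 (0.0497), which became 0.34 (0.55) without wild-type replicate 3 at 0 h and was lost in 18 of 24 fits that each left out 1 array. The overlap of genotypes at 0 h came from that replicate, which did not detect the probe. The call was lost without wild-type replicate 1 or 2 at 0 h (-2.62 to -1.10 over all arrays left out), and the difference was 0.38 under median centring over all probes and -0.05 on the raw scale. Among 0 h arrays of lower background, which include 1 wild-type array, it was -2.09, and among those of higher background (2 mutant and 2 wild type) -1.93.

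Trak2 (chr1:58900449-58974345), the kinesin adaptor, rose in both genotypes between 12 and 24 h. For ILMN_2641431 the raw intensities at 12 h were 306, 144, 251, 201 and 145 in mutant and 126, 100 and 85 in wild-type samples. At 24 h they were 475, 365, 592, 475 and 544 in mutant and 515, 448 and 434 in wild type. Mutant samples were all above wild type at 12 h, by a narrow margin for replicates 2 and 5, and the genotypes overlapped at 24 h. At 0 h the values were 449, 342, 281, 247 and 333 in mutant and 149, 290 and 312 in wild-type samples, and the probe was above background in all 5 mutant and in none of the wild-type samples.

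The second probe, ILMN_2872698, followed the first with r = 0.977 over 24 arrays and 0.99 over the 16 later ones. It read 559, 389, 331, 265 and 338 in mutant and 152, 324 and 321 in wild-type samples at 0 h, 295, 132, 258, 201 and 142 against 122, 110 and 69 at 12 h, and 475, 393, 619, 579 and 513 against 543, 490 and 415 at 24 h. The third probe, ILMN_2625428, was not detected on any array (raw 41.4 to 51.7 after 0 h), so the 3 probes of this gene disagree. Their positions along the transcript are not given in the sources used here.

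**Figure D4:**
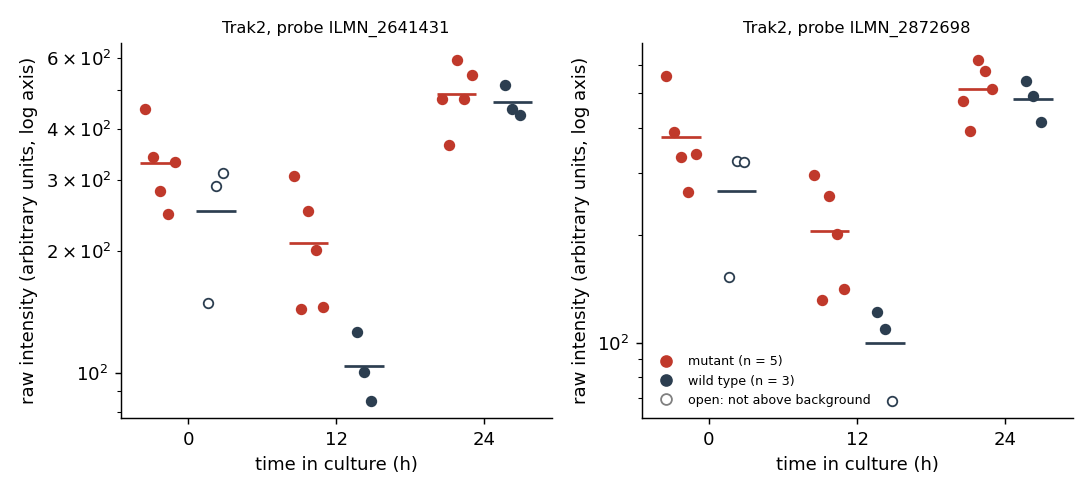
Raw intensity of the 2 detected Trak2 probes (log axis, arbitrary units) against time in culture, with 5 mutant samples in red, 3 wild-type samples in dark blue, and bars at group means. Open points are arrays where the probe was not above background. Mutant samples lie above wild type at 12 h, and both genotypes are higher at 24 h than at 12 h.

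Between 12 and 24 h wild-type Trak2 rose 5.95-fold by ILMN_2641431 (2.57 ± 0.45 log2 units, adjusted p = 0.000572) and 6.78-fold by ILMN_2872698 (2.76 ± 0.52, 0.00117). Mutant Trak2 rose 2.6-fold (1.38 ± 0.35, 0.00432) and 2.82-fold (1.5 ± 0.40, 0.00692). All of these calls held without any 1 array and under every other setting tried. The difference between the changes, mutant minus wild type, was -1.19 ± 0.56 (0.348) and -1.26 ± 0.65 (0.403), so a smaller rise in mutant was not shown for this interval. From 0 to 24 h the wild-type level was at least 4.17-fold and at least 4.29-fold higher. The limma adjusted p-values, 7.26e-08 and 6.27e-07, belong to the fitted differences from undetected values and do not test these bounds. The mutant level was 4.05-fold and 3.03-fold higher (adjusted p = 5e-05 and 0.00225).

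Between genotypes, Trak2 was above background at 0 h in 5 of 5 mutant and 0 of 3 wild-type samples by both probes. The lowest detected normalized signal at 0 h was 5.25 to 6.97 on mutant and 6.64 to 7.8 on wild-type arrays. A level detected on a mutant array could thus go undetected on a wild-type array, and these counts do not show a difference. The fitted difference was 1.64 ± 0.40 (ILMN_2641431, adjusted p = 0.0024) and 1.99 ± 0.46 (ILMN_2872698, 0.00163), but it sets mutant values against undetected ones and its size is not a measurement. The raw values overlapped (0.44 and 0.54, exact two-sided permutation p = 0.286 and 0.214). Normalized means at 0 h were 6.60 ± 0.68 in mutant and 4.95 ± 0.23 in wild type for the first probe, and 7.09 ± 1.04 and 5.10 ± 0.24 for the second (SD, n = 5 and 3). Since no wild-type array was above background and the lowest detected signals gave no bound, no fold is given. These calls held without any 1 array, but not in the authors' values (0.45 and 0.52) or among the 0 h arrays of lower background (1.06 and 1.13, adjusted p = 0.099 and 0.079), where wild type has 1 array, assumed to vary like the other groups. At 12 h the differences of 0.61 ± 0.40 and 0.72 ± 0.46 (0.198 and 0.192) did not pass, and were 2.01 and 2.07 under median centring over all probes (7e-05 and 7.8e-05). At 24 h they were -0.58 ± 0.40 and -0.55 ± 0.46 (0.308 and 0.411) and turned to 0.03 and 0.07 under that centring. The normalized groups did not overlap at 24 h, though the raw ones did.

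**Figure D5:**
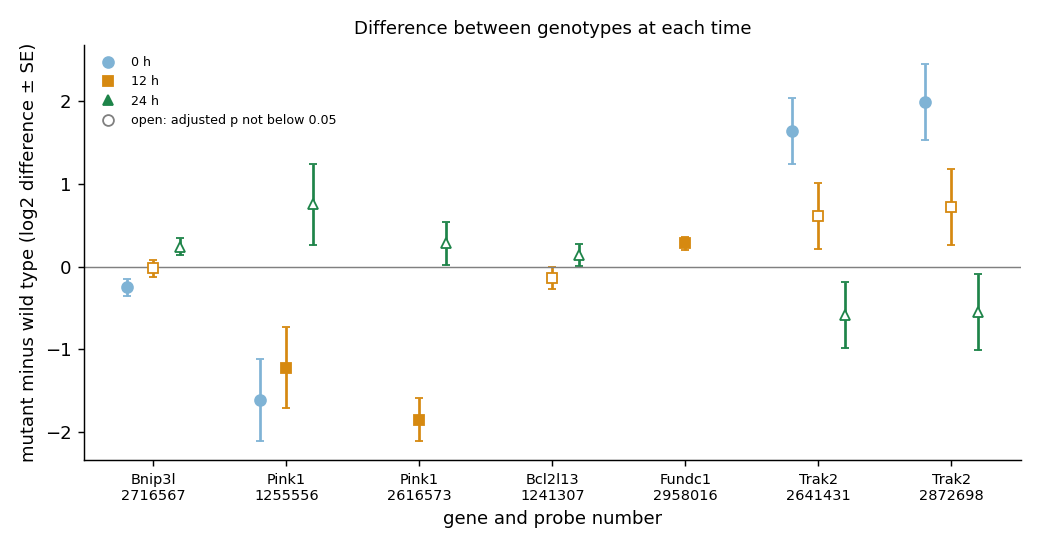
Mutant minus wild type (log2 difference ± SE from limma) at 0, 12 and 24 h for the 7 probes that passed the filter. Filled points have an adjusted p below 0.05, and comparisons where neither genotype was above background are not drawn. Both Pink1 probes are lower in mutant at 12 h, both Trak2 probes are called higher at 0 h, where wild type was not above background, and no probe is called at 24 h.

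Over the 7 tested member probes, the mutant and wild-type groups differed at 0 h in 5 (3 higher, 2 lower), where 39.8% of all 6312 probes were called, 32.2% higher and 7.62% lower. At 12 h they differed in 3 (1 higher, 2 lower), against 50% of all probes, 34.1% higher and 15.8% lower. At 24 h they differed in 0, against 18%, 9.35% higher and 8.65% lower. For 24 h limma gave an unadjusted p under 0.05 for Bnip3l alone (0.0203). The count at 0 h includes the Fundc1 probe ILMN_2958016, which was not above background in either genotype. The 1 called higher at 12 h is the same probe, which passed the filter only through mutant arrays at 12 h. That call is therefore not support for a difference. The median difference over all probes was 0.24, 0.29 and 0.17 at the 3 times.

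Within wild type, 4 member probes were higher at 12 h than at 0 h, where 44.6% of all probes were called (36.5% higher, 8.11% lower). Both Trak2 probes, 2 in all, were higher at 24 h than at 12 h, where 6.42% were called (4.44% higher, 1.98% lower). Between 24 h and 0 h 6 differed (5 higher, 1 lower), where 49.1% were called (38% higher, 11.2% lower). The counts from 0 h in wild type include Bcl2l13, which was not above background at any time there. Within mutant, 4 were higher at 12 h than at 0 h, where 30.6% were called (26.3% higher, 4.34% lower). Between 24 h and 12 h 6 differed (5 higher, 1 lower), where 29.8% were called (14% higher, 15.8% lower). From 0 to 24 h 5 were higher, where 45% were called (31% higher, 14% lower). Each mutant count includes Bcl2l13. The first also includes Fundc1, and Fundc1 is the 1 lower at 24 h than at 12 h. Both probes passed the filter only through mutant arrays at 12 or 24 h, so their calls are a description.

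The change from 12 to 24 h differed between genotypes in 1 member probe, Pink1 ILMN_2616573, where 1.47% of all probes were called (1.05% higher, 0.428% lower). The change from 0 to 24 h differed in 4 (2 higher, 2 lower), where 16.7% were called (4.71% higher, 12% lower). These 4 were Bnip3l (0.50 ± 0.14, adjusted p = 0.0155), Pink1 ILMN_1255556 (2.36 ± 0.70, 0.0219) and the Trak2 probes (-2.22 ± 0.56, 0.00849, and -2.54 ± 0.65, 0.00947). The Trak2 values rest on wild-type signals at 0 h that were not above background. With the bounds above, the wild-type rise is at least 4.17-fold and 4.29-fold, against 4.05-fold and 3.03-fold in mutant. The Pink1 call was lost without wild-type replicate 1 or 2 at 0 h or replicate 3 at 24 h (1.84 to 3.36). In the authors' values none of the 4 was called.

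Among genes that act with Pink1 and parkin, 7 of 11 on the array were tested. Between genotypes 3 were higher and 1 lower in mutant at 0 h, 1 higher and 3 lower at 12 h, and 1 higher and 2 lower at 24 h. Over all probes 32.2% were called higher and 7.62% lower at 0 h, 34.1% and 15.8% at 12 h, and 9.35% and 8.65% at 24 h. The genes called higher were Parl, Pgam5 and Tbk1 at 0 h and Tbk1 later, none of them above background in wild type at that time. The list's median difference was 0.56, 0.15 and 0.18, beside 0.24, 0.29 and 0.17 over all probes. Tax1bp1, an autophagy receptor for ubiquitinated cargo, was lower in mutant by -2.14 ± 0.22 at 0 h (adjusted p = 5.21e-08), -2.30 ± 0.22 at 12 h (2.52e-08) and -2.29 ± 0.22 at 24 h (6.41e-08), with the first call lost under median centring over all probes and in the authors' values. Sqstm1, the cargo receptor p62, was lower by -2.37 ± 0.50 at 12 h (0.000915), and Usp15, a deubiquitinase that opposes parkin, by -1.90 ± 0.43 (0.00157). Both of these held under every setting tried. In mutant cells 3 of the 7 rose between 12 and 24 h, and in wild type none passed. Over all probes 14% were called higher in mutant and 4.44% in wild type. The median change was 0.59 and 0.11, beside -0.11 and -0.06 over all probes. The 3 mutant calls were fragile. Those of Sqstm1 and Tomm7 were each lost in 11 of 37 alternatives and that of Tax1bp1 in 3.

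Of 7 genes on the array that regulate Fundc1, 4 were tested. In mutant 1 was higher and 1 lower at 0 h, 2 were lower at 12 h and 1 at 24 h (median -0.48, -0.54 and -0.19, beside 0.24, 0.29 and 0.17 over all probes, of which 39.8%, 50% and 18% were called). The 1 called higher at 0 h, Pgam5, was not above background in wild type. Marchf5, a mitochondrial ubiquitin ligase that acts on Fundc1, was lower in mutant by -3.20 ± 0.35 at 12 h (adjusted p = 2.4e-07) and -1.67 ± 0.35 at 24 h (0.00156), in every setting tried. It rose by 1.52 ± 0.30 between 12 and 24 h in mutant cells (0.000581). In wild type it changed by -0.01 ± 0.39 (0.997), and the difference between these changes, 1.53 ± 0.49 (0.132), did not pass. Ulk1, the kinase that starts autophagy and phosphorylates Fundc1, was lower in mutant by -1.39 ± 0.36 at 12 h (0.0045), except under median centring over all probes, where the call was lost.

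Of 9 genes that regulate or bind Bnip3l and Bnip3, 6 were tested, and 5 were higher in mutant at 0 h, 1 at 12 h and none at 24 h (median difference 1.14, 0.49 and 0.30), where 32.2%, 34.1% and 9.35% of all probes were called higher. At 0 h Rheb, Pptc7 and Tmem11 were above background on no wild-type array, and Bcl2l1 and Mcl1 on 1 of 3. Mcl1, an anti-apoptotic Bcl2 relative, was higher in mutant by 3.03 ± 0.42 at 0 h (adjusted p = 4.51e-06) and 1.63 ± 0.42 at 12 h (0.00395), in every setting tried. It is also abundant in white cells, and the B cell, neutrophil and monocyte sums were higher in mutant samples at 0 and 12 h. The part of those cells in the Mcl1 difference was not tested. Of 5 LC3 family genes 4 were tested, with 1 higher in mutant at 0 h, 1 at 12 h and 2 at 24 h (median 0.52, 0.42 and 0.52), where 32.2%, 34.1% and 9.35% of all probes were. Of these calls, Gabarap at 24 h is the 1 whose gene was above background in wild type. Gabarap, a member of that family, was higher in mutant at 24 h by 0.74 ± 0.19 (0.00855), a call lost without wild-type replicate 3 (0.46 to 1.21 over all settings) and in the authors' values.

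Partners of Trak2 were mostly dim. Of 11 transport genes 4 were tested, and 2 were higher in mutant at 0 h, 2 at 12 h and 1 at 24 h, none of them above background in wild type at that time (median 0.46, 0.45 and 0.17). Over all probes 32.2%, 34.1% and 9.35% were called higher. Rhot1 and Mtx1 made up the calls at 0 and 12 h. Of 9 fission and fusion genes 6 were tested, with 1 higher in mutant at 0 h, 2 higher and 2 lower at 12 h, and 1 lower at 24 h (median 0.19, 0.07 and -0.11), where 39.8%, 50% and 18% of all probes were called. Those called higher, Oma1 and Mfn2, were not above background in wild type. Mff, which recruits the fission enzyme to mitochondria, was lower in mutant by -1.56 ± 0.37 at 12 h (adjusted p = 0.00213), a call lost under median centring over all probes. It rose by 1.61 ± 0.32 in mutant cells between 12 and 24 h (0.000553) under every setting tried. Of 4 other mitophagy receptors 2 were tested. In mutant 1 was higher at 0 h, 1 at 12 h and 2 at 24 h (median 0.71, 0.15 and 0.82). Of all probes 32.2%, 34.1% and 9.35% were called higher. Phb2 was called at each time and was never above background in wild type. Fkbp8 was called only at 24 h, by 1 ± 0.34 (0.0444), a call lost in 14 of 37 alternatives. Fkbp8 rose by 1.56 ± 0.30 in mutant cells between 12 and 24 h (0.00038), under every setting tried. In that interval 14% of all probes were called higher. Of 13 other outer membrane genes 8 were tested, and 4 were higher in mutant at 0 h, 5 at 12 h and none at 24 h (median 0.62, 0.41 and 0.29), where 32.2%, 34.1% and 9.35% of all probes were. None of the 5 at 12 h, and of the 4 at 0 h only Tspo, on 1 of 3 arrays, was above background in wild type.

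The genes whose normalized pattern over the 24 arrays was nearest to Pink1 ILMN_1255556 were Mff (r = 0.903, by another probe), Fgfr1op2 (0.902) and Abhd4 (0.898). Nearest to Trak2 ILMN_2872698 were Zfp2 (0.941), Glrx5 (0.904), which works in iron-sulfur cluster assembly, and Pdzk1ip1 (0.897). For Bcl2l13 they were Napa (0.942), Nacad (0.926) and Mocs1 (0.917), and for Fundc1 Dxo (0.811), D17H6S56E-5 (0.808) and Tap1 (0.808). These correlations describe arrays that share group, background and depth of detection, and carry no test.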

How the data were processed

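Groups came from the labels, and a key supplied with the data writes 15 h where the labels write 12 h. Total RNA was amplified and biotin-labelled, per the labels' protocols. The deposited unnormalized table gives, per the file headers, a mean signal intensity over the beads of a probe, its standard error and a detection p-value per array, with no background subtraction. The authors' processed values are deposited on a linear intensity scale, by a method not given in the sources used here. Probes were named through the platform annotation, with 1 gene for 23978 and none for 1719, and 23962 matched RefSeq.

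Intensities were background-corrected (normexp, negative controls inferred from detection p-values), offset by 16, made equal in distribution by quantile normalization and log2-transformed with neqc in limma 3.58.1 (R 4.3.3). A probe was kept with detection p below 0.01 on at least 3 arrays, which left 6312. One model with 6 group means and an intensity trend was fitted to all probes kept, and the Benjamini-Hochberg adjustment was made for each comparison over all of these probes (called below 0.05). Intervals of differences are at the 95% level. A pathway gene is represented by its brightest probe, and up to 4 genes with the smallest p per list and comparison could be named. Against a group with no array above background, a fold is a lower bound, set by the lowest detected signal or the probe's own, whichever was higher. Patterns were compared by Pearson's r. The method was tested on simulated data. The members, lists and tests were chosen with earlier results of these data known. The number of arrays limits the precision. Replicate numbers were taken from the labels. Between 12 and 24 h the deviations of same-numbered arrays from their group means correlated at 0.31 to 0.504 in wild type. In mutant they correlated at 0.172 to 0.644. The correlations were -0.007 to 0.4 from 0 to 12 h and -0.085 to 0.326 from 0 to 24 h. The main model did not use this pairing, so its standard errors and p-values for changes in culture ignore it. The replicate block, over all times, was fitted only as an alternative. Alternatives were the filter, background correction, offset, centring, the authors' values, 1 probe per gene, array weights, no intensity trend, the compared groups alone, the replicate block and each array left out. After seeing the data, centring on the kept probes, the 0 h arrays split at a median intensity of 200 (higher in mutant replicates 1 and 2 and wild-type replicates 2 and 3), and exact permutation of raw log2 values were added. Figures were drawn with matplotlib 3.10.9.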

Additional observations from a re-analysis of the deposited data

Results flagged for a closer look

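In mutant cells at 12 h, Bnip3l stood low in replicate 2, at 13.87 log2 units, against 14.16 to 14.25 in the other 4 samples. It was the 1 such sample among 21 groups of 5 examined, and chance gives about 1 in 20.

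The change in culture differed between genotypes, by the test of that difference, in 5 results. Between 12 and 24 h, Pink1 by ILMN_2616573 changed by 2.13 more in mutant than in wild type (log2). Between 0 and 24 h the mutant change exceeded the wild-type change by 0.50 for Bnip3l and by 2.36 for Pink1 by ILMN_1255556. For Trak2 it was the smaller of the changes, at -2.22 by ILMN_2641431 and -2.54 by ILMN_2872698. Wild-type Trak2 was not above background at 0 h, so its own change from 0 h is only a bound, and the sizes -2.22 and -2.54 rest on undetected values.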

How the results depend on the processing

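The rise of both Pink1 probes in mutant and of both Trak2 probes in both genotypes between 12 and 24 h, the 12 to 24 h difference between genotypes for Pink1 ILMN_2616573, and its 12 h difference by limma kept their direction and call in every alternative that gave a value. The last did not pass on raw values by exact permutation (-1.33, adjusted p = 0.075), where none of the 21 comparisons did. The causes of the changes below were not tested.

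Counts of member probes called moved by over 1.5 times as follows. Mutant minus wild type at 0 h (5 called) gave 3 with no filter, no intensity trend, only the groups compared or centring over kept probes, 2 with median centring or array weights, and 1 with the authors' values or the 0 h arrays of lower background, where wild type has 1 array. At 12 h (3) centring over kept probes gave 6. At 24 h (0) median centring gave 1, array weights 2 and only the groups compared 4. For 12 h minus 0 h in wild type (4) the brightest probe per gene and only the groups compared each gave 2, and for 24 h minus 12 h (2) the brightest probe gave 1. For 12 h minus 0 h in mutant (4), detection on 8 arrays gave 2 and the authors' values 1, and for 24 h minus 0 h (5) the brightest probe gave 3. The genotype difference in the change from 12 to 24 h (1) gave 3 with median centring, 2 with the authors' values, only the groups compared or centring over kept probes, 4 with array weights and 0 with the brightest probe. That from 0 to 24 h (4) gave 2 with median centring, array weights or centring over kept probes, and 0 with the authors' values. With a detection p below 0.05, probes detected on every array became 8 in mutant at 12 h (5 before) and 2 in wild type at 0 h (1 before). Leaving out 1 array gave 2 to 5 at 0 h, 1 to 3 at 12 h and 0 to 1 at 24 h. It gave 3 to 5, 2 to 2 and 5 to 6 for the wild-type changes 12 h minus 0 h, 24 h minus 12 h and 24 h minus 0 h, and 2 to 4, 4 to 6 and 5 to 6 for the mutant ones. For the genotype differences in change it gave 1 to 2 (12 to 24 h) and 3 to 4 (0 to 24 h).

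Directions turned mostly for Bnip3l. With median centring it was 0.30 at 0 h, 0.22 at 12 h, 0.98, 0.06 and 1.05 for the 3 wild-type changes, and -0.04 for the genotype difference from 0 to 24 h. In the authors' values these were 0.08 at 0 h, -0.50 at 24 h, 2.45, 0.37, 2.82 and -0.58. Centring over kept probes gave -0.12 at 24 h and 0.87, 0.09 and 0.95 in wild type, array weights 0.11 at 12 h and raw values 0.53 at 0 h. At 12 h it was 0.12 without wild-type replicate 3 and 0.05 without mutant replicate 2 (-0.10 to 0.12 over arrays left out), without which its mutant change from 12 h was -0.01. Pink1 ILMN_1255556 turned to 0.38 at 0 h with median centring, and its wild-type change from 12 to 24 h to -0.11 without wild-type replicate 2 at 24 h (-0.11 to 0.35). That of ILMN_2616573 turned to 0.03 in the authors' values and 0.11 without wild-type replicate 2 at 12 h (-0.32 to 0.11). Trak2 at 24 h turned to 0.03 and 0.07 with median centring and to 0.06 and 0.09 on raw values. The mutant change of ILMN_2872698 from 0 to 12 h turned to -0.02, -0.08 and -0.13 without mutant replicates 3, 4 or 5 at 0 h, -0.27 without replicate 1 at 12 h (-0.27 to 0.50 over arrays left out) and -1 with the 0 h arrays of higher background. Bcl2l13 at 12 h turned to 0.23 with median centring and 0.02 without wild-type replicate 3 (-0.24 to 0.02), and was -0.06 at 24 h with centring over kept probes. Under that centring Fundc1 was -0.50 at 12 h, and -0.08 and 0.21 for the mutant changes from 0 and from 12 h. Among pathway genes, Mfn1 turned to 0.19 at 12 h and 0.04 at 24 h with median centring, and Bcl2l1 to -0.22 at 0 h in arrays of lower background.

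The replicate block moved no member count by over 1.5 times, and changed the call of Pink1 ILMN_1255556 for 12 h minus 0 h in wild type (1.22, adjusted p = 0.046 against 0.0759). Over all probes, counts moved by over 1.5 times in at least 3 alternatives for each comparison. They ranged from 1172 to 4455 at 0 h (2515 called), 1531 to 5177 at 12 h (3153) and 580 to 3378 at 24 h (1136). They ranged from 600 to 8451 (2817), 167 to 1907 (405) and 1099 to 10396 (3102) for 12 h minus 0 h, 24 h minus 12 h and 24 h minus 0 h in wild type, and from 836 to 4445 (1934), 1291 to 4309 (1879) and 1835 to 7142 (2841) in mutant. For the genotype difference in change they ranged from 48 to 2198 (93) from 12 to 24 h and from 193 to 2056 (1056) from 0 to 24 h. The counts 4455, 8451, 10396, 4445 and 7142 came with no filter, over all 25697 probes instead of 6312. Detection on 8 arrays, which kept fewer probes, gave 836, 1291 and 1835. These counts are therefore not shares of the same probes. Signal over background limits Bnip3, Fundc1 and Bcl2l13 at all times and most members at 0 h.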
